A study of Mus musculus with 262 samples.

Results

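The vacuolar proton pump (V-ATPase) is built from subunits that several genes can supply, and 10 such genes were followed here, named by symbol in all 5 deposited tables of mouse kidney RNA. They form 5 pairs, each with a kidney-restricted gene and a widely expressed paralog of the same subunit: Atp6v1b1 with Atp6v1b2, Atp6v1g3 with Atp6v1g1, Atp6v1c2 with Atp6v1c1, Atp6v0d2 with Atp6v0d1, and Atp6v0a4 with Atp6v0a1. All 10 were found, of 47069 genes in the TPM tables and 24111 in the count table, and all 10 passed the filter on low values in each comparison. The 262 samples came from 2-month-old male mice. The strain was C57BL/6 for the single cells (87 type A intercalated, 23 type B intercalated, 74 principal, 19 proximal tubule and 32 non-epithelial cells, as the authors named them), for 2 bulk samples sorted with a c-Kit antibody and 2 sorted with DBA, and for single tubules cut out by hand, 11 of the cortical collecting duct (CCD) and 8 of the cortical thick ascending limb (cTAL). The other 4 samples were 2 GFP-positive and 2 GFP-negative fractions of a strain labelled Atp6v1b1GFP, in which the sort itself follows Atp6v1b1. No sample carried a treatment. The labels do not say which samples came from separate animals, so p-values measure only the spread between these samples.

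The V-ATPase is a rotary pump with a peripheral V1 sector that hydrolyses ATP and a membrane V0 sector that carries protons. Every cell uses it to acidify lysosomes and endosomes. Intercalated cells of the collecting duct also hold it at the cell surface, where type A cells secrete acid into the tubule and type B cells run the pump on the opposite side. Subunit B sits in the V1 head, G and C belong to the stalks that hold the sectors together, d couples the rotor of V0 to V1, and a is the large membrane subunit through which protons pass. Loss of human ATP6V1B1 or ATP6V0A4 causes distal renal tubular acidosis.

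The paralogs of a pair are separate genes with distinct coding sequences. On the GRCm38 assembly (GENCODE M21), Atp6v1b1 lies on chromosome 6 from 83742990 to 83758855 and Atp6v0a4 on the same chromosome from 38048483 to 38124586 on the minus strand. Atp6v1g3 spans 138273738 to 138289462 on chromosome 1, Atp6v1c2 spans 17284721 to 17329359 on chromosome 12 (minus strand), and Atp6v0d2 spans 19876841 to 19922605 on chromosome 4 (minus strand). The widely expressed genes lie at chromosome 8 from 69088646 to 69113711 (Atp6v1b2), chromosome 4 from 63544772 to 63550750 (Atp6v1g1), chromosome 15 from 38661933 to 38692446 (Atp6v1c1), chromosome 8 from 105524465 to 105566047 (Atp6v0d1, minus strand) and chromosome 11 from 101009452 to 101063719 (Atp6v0a1). Aligned coding sequences were identical at 76.2% of bases in the B pair, 69.5% in the a pair, 66.6% in the C pair, 65.9% in the d pair and 64.0% in the G pair. The longest run of bases shared without a mismatch was 26 bases, in the B pair (cagtgtgagaagcacgtgctggtgat), and 11 to 18 bases in the other pairs. The G paralogs, both of 118 codons, are more alike at the start of the coding sequence than over its whole length. Of the first 72 bases, 19 differ, and these are in capitals.
Atp6v1g3: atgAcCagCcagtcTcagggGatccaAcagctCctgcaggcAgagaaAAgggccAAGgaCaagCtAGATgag
Atp6v1g1: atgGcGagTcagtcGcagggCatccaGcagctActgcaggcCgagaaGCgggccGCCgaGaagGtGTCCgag

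Because the kidney-restricted genes were high in the same samples (below), the promoters of the 4 that have an entry in the RefSeq table of GRCm38.p6 are shown, from 250 bases before to 50 bases after the start site, on the gene's strand. Atp6v0d2, Atp6v1b2, Atp6v1g1 and Atp6v1c1 have none there. Capitals mark matches to a forkhead motif, GTAAACA, or to a motif of the Tfcp2l1 type, a CCAG repeated after a gap of 6 bases, each searched on both strands. Foxi1, a forkhead factor, and Tfcp2l1 are transcription factors known from intercalated cells.
Atp6v1b1, chr6:83742767-83743066 (+): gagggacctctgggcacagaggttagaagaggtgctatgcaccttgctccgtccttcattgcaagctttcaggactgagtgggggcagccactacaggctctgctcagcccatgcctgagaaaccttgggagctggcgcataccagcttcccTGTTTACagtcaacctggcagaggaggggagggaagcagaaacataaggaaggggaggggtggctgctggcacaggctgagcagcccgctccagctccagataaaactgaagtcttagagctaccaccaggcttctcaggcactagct
Atp6v0a4, chr6:38124537-38124836 (-): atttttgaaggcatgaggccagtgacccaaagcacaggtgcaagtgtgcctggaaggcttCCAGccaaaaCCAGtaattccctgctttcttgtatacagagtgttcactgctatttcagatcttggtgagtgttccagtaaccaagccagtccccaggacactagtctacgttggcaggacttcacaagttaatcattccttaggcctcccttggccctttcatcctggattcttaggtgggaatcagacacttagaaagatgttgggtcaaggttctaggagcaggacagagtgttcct
Atp6v1g3, chr1:138273488-138273787 (+): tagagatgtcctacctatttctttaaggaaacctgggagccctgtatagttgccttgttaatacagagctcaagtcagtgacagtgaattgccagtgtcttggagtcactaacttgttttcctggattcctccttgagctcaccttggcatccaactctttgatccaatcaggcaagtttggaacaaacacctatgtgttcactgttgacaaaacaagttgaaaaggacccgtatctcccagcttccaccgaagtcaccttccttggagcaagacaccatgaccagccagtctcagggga
Atp6v1c2, chr12:17324681-17324980 (-): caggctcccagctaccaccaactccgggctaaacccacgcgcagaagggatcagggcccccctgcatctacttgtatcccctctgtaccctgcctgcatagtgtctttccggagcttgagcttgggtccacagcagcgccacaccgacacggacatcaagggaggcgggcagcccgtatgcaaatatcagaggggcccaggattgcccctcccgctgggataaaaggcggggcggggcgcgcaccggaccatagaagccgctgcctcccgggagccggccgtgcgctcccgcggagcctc
The forkhead motif occurred in the Atp6v1b1 window alone among these 4, as TGTTTAC on the minus strand, beginning 98 bases before the start site. It was present in 3.65% of all 32851 promoter windows, and its shorter form TAAACA, which overlaps it, in 13.4%. The Tfcp2l1-type motif occurred in the Atp6v0a4 window alone, beginning 190 bases before the start site, against 3.44% of all windows. The 2 widely expressed genes with an entry, Atp6v0d1 and Atp6v0a1, held neither motif. The windows also differed in base composition: Atp6v1c2 and Atp6v0d1 had 66% and 62.3% G and C with 22 and 26 CG dinucleotides, whereas Atp6v0a4, Atp6v1g3 and Atp6v1b1 had 1, 2 and 3 CG dinucleotides.

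Some facts of the whole series bear on the values. The GFP samples held 35530885 to 40815091 reads in genes, and TPM, a transcript abundance scaled to the same sum in every sample, keeps no depth, so the depth of the other samples is unknown. A single cell had 1092 to 4307 genes at 1 TPM or more. Most cells carried the markers of their label: type A cells had a median of 779.79 TPM for the summed type A list, of which type B cells had 0.22 TPM, the type B list had 1896 TPM in type B cells, and the immune list 29664.9 TPM in the non-epithelial cells, whose endothelial and stromal list was at a median of 0. The sort alone did not set the type, since cells labelled DBA + c-Kit included 60 named type A and 37 named principal. Whether these markers served to name the types is not known here, so the match is no independent check. The separation by markers was not complete, since the type A list was at 0 in the lowest type A cell. Type A cells had a median of 106.57 TPM of the type B list, and proximal tubule cells a median of 156.77 TPM of the principal list. Tubules carried the markers of their label too. The thick ascending limb list summed to 33613 TPM or more in each cTAL and at most 700.55 TPM in each CCD. The tubule m2_CCD2 stood apart, with 7621 genes at 1 TPM or more and a median Spearman correlation across genes of 0.68 with the other CCDs, so results over tubules are also given without it where they move. Calls in either direction were 2315 higher and 4033 lower for c-Kit against DBA (3055 and 3072 after quantile normalization) and 1782 and 744 for CCD against cTAL (1221 and 1244).

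The first question was which cell type holds which paralog. Among the single cells all 5 kidney-restricted genes had their highest mean TPM in an intercalated type. Of the widely expressed genes only Atp6v1b2 did. This contrast depended on the scale. By mean log2(TPM + 1), Atp6v1b2, Atp6v1g1, Atp6v1c1 and Atp6v0a1 were all highest in type B cells, and only Atp6v0d1 was not. The lead was small for Atp6v1g1, at 7.15 in type B and 7.06 in proximal tubule cells. Other pump genes also had their highest mean TPM in an intercalated type, such as Atp6v1a, Atp6v1e1, Atp6v0b and Atp6ap1. Atp6v0a2 and Tcirg1 were highest in non-epithelial cells. The share of all genes with this pattern was not counted, so the number is a description only. No animal is named for any cell, so each type is 1 sample, nothing was tested between types, and intervals on shares of cells are exact Clopper-Pearson 95% intervals that cover counting error only. A cell counts as detecting a gene at 1 TPM or more.

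Atp6v1g3, a stalk subunit G, was the most abundant member, averaging 3946 TPM in type B and 2451 TPM in type A cells. All 23 type B cells held it (lower bound 85.2%), as did 84 of 87 type A cells (90.3% to 99.3%). Non-epithelial cells averaged 614 TPM, principal cells 173 TPM and proximal tubule cells 24.3 TPM, with medians of 15.2, 4.34 and 3.22 TPM. The highest principal and non-epithelial cells reached intercalated levels, at 2468 and 6266 TPM, whereas the highest proximal tubule cell had 379 TPM. Its paralog Atp6v1g1 showed no such order, with means from 266 TPM in type B to 414 TPM in proximal tubule cells and detection in 80 of 87 type A, 21 of 23 type B and 66 of 74 principal cells.

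Atp6v1c2 and Atp6v0d2, the stalk subunit C and the rotor coupling subunit d, followed Atp6v1g3. Type B cells averaged 1476 TPM of Atp6v1c2, type A cells 763, non-epithelial cells 210, principal cells 71.1 and proximal tubule cells 27.9 TPM. Type B cells averaged 1060 TPM of Atp6v0d2, type A cells 810, non-epithelial cells 256, principal cells 80.4 and proximal tubule cells 1.65 TPM. Both were found in 23 of 23 type B cells, and principal cells had medians of 0.59 and 0.80 TPM. Their paralogs had their highest mean TPM in principal cells. Atp6v0d1 averaged 377 TPM there, 227 in proximal tubule, 71.8 in non-epithelial, 65.0 in type B and 25.0 TPM in type A cells. Atp6v0d1 was detected in 57 of 74 principal cells (65.8% to 86.0%) and in 26 of 87 type A cells (20.5% to 40.6%). Atp6v1c1 averaged 111 TPM in principal cells and 24.8 to 65.5 TPM in the other types, and its median was at most 1.07 TPM in every type. By detection its order differed: 23 of 74 principal, 10 of 23 type B and 10 of 19 proximal tubule cells held it, with overlapping intervals.

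Atp6v1b1 and Atp6v0a4, subunits B and a, were the 2 kidney-restricted genes with a higher mean TPM in type A than in type B cells. The means were 521 and 317 TPM for Atp6v1b1 and 564 and 387 TPM for Atp6v0a4. For Atp6v0a4 the medians were 528 and 326 TPM, but the mean log2(TPM + 1) was almost even, at 7.92 and 7.93. The spread over cells was wide for both genes. The middle 50% of type A cells ran from 46.96 to 715 TPM for Atp6v1b1, whose highest cell had 8024 TPM. For Atp6v0a4 it ran from 167 to 784 TPM. Both were also present outside intercalated cells, in 66 and 58 of 74 principal cells (79.8% to 95.2% and 67.3% to 87.1%), at means of 184.5 and 126 TPM. Atp6v1b2, the widely expressed B subunit, had its highest mean in type B cells, 270 TPM, while proximal tubule cells averaged 159, principal cells 118, type A cells 113 and non-epithelial cells 56.4 TPM. Its medians separated the intercalated types more, 240.01 TPM in type B and 0.98 TPM in type A cells, and the sorts differed too: PNA was the sort label of 17 type B cells and of none outside that type. Atp6v0a1, a subunit a known from neurons, was low everywhere, with means of 7.96 to 18.2 TPM, medians of 0 and detection in 8 of 87 type A and 8 of 74 principal cells.

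**Figure D1:**
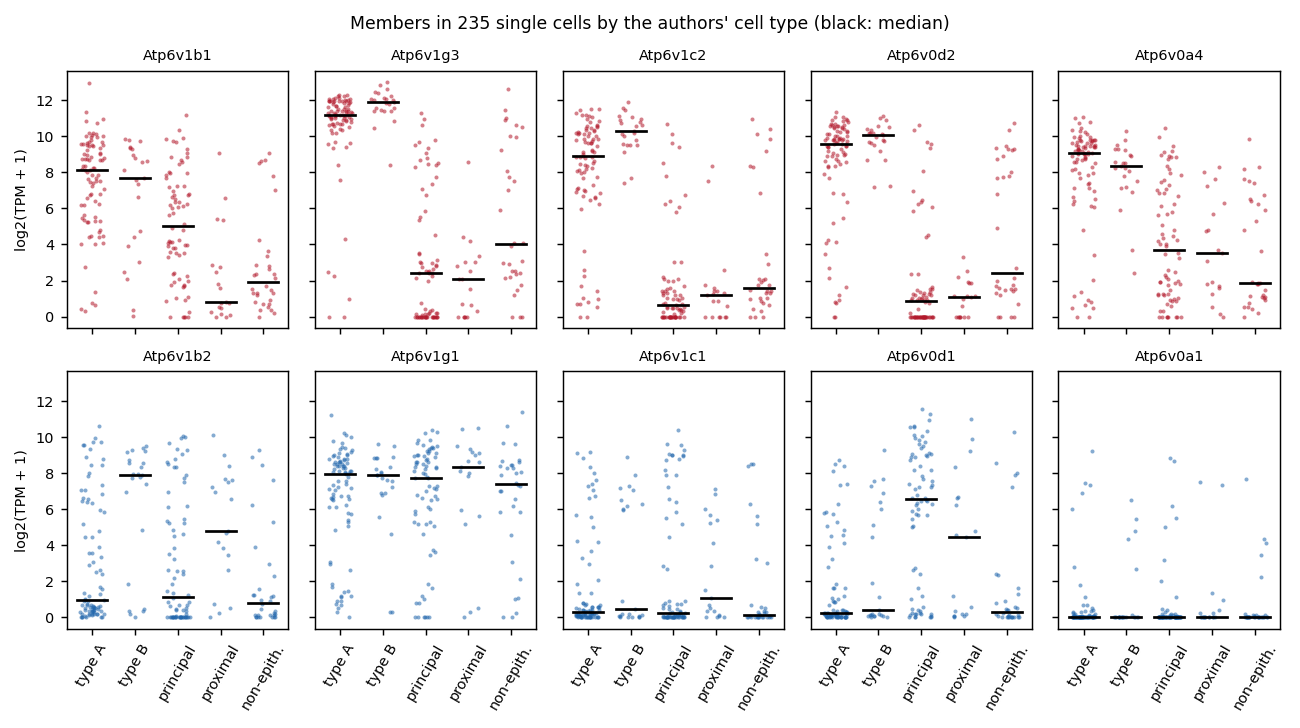
TPM of the 10 members in each single cell, on a log2(TPM + 1) axis, by the authors' cell type; kidney-restricted genes are in the upper row (red), their paralogs in the lower row (blue), and black bars are medians. Type A cells had a median of 2331 TPM of Atp6v1g3, type B cells 3806 TPM and principal cells 4.34 TPM, while Atp6v0d1 was highest in principal cells, with a median of 92.0 TPM.

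Within single intercalated cells the kidney-restricted member of a pair was usually the higher. It exceeded its paralog in 85 of 87 type A cells for the a pair, 82 for the G pair, 81 for the C pair, 81 for the d pair and 73 for the B pair. In type B cells the counts were 23 of 23 for the a and G pairs, 22 for the C and d pairs and 15 for the B pair, which was the most even, Atp6v1b1 making up 54.0% of the pair's summed TPM. Principal cells were mixed: Atp6v0a4 exceeded Atp6v0a1 in 63 of 74 cells and Atp6v1b1 exceeded Atp6v1b2 in 48, but Atp6v1g3 and Atp6v0d2 exceeded their paralogs in 20 and 17. All 5 kidney-restricted genes were detected together in 78 of 87 type A and 21 of 23 type B cells, and in 22 of 74 principal, 5 of 19 proximal tubule and 15 of 32 non-epithelial cells. At 10 TPM or more these counts were 69, 17, 7, 0 and 4. No intercalated or principal cell detected all 5 widely expressed genes, and type A cells detected a median of 2.

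**Figure D2:**
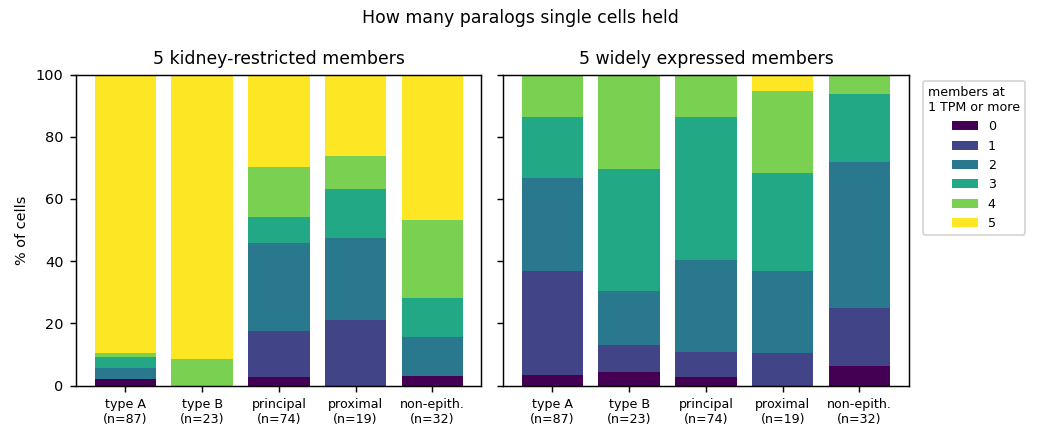
Share of cells (%) that held 0 to 5 of the kidney-restricted members (left) or of the widely expressed members (right) at 1 TPM or more, by cell type, with the number of cells in brackets. In the left panel 78 of 87 type A and 21 of 23 type B cells held all 5.

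Cells outside the intercalated types were divided, after their values were seen, by whether they held 1 TPM or more of Slc4a1, Slc26a4 or Foxi1, genes that define intercalated cells. In the 19 principal cells with such a transcript the means were 531 TPM for Atp6v1g3, 239 TPM for Atp6v1c2 and 283 TPM for Atp6v0d2, and in the 55 without it 49.7, 13.2 and 10.3 TPM. Atp6v1b1 was at 149 TPM in the 19 and 197 TPM in the 55, and Atp6v0a4 at 177 and 109 TPM. In the 12 non-epithelial cells without such a transcript Atp6v1g3 averaged 31.1 TPM, against 963 TPM in the 20 with it. In proximal tubule cells the division ran both ways: Atp6v1g3 averaged 62.4 TPM in the 7 with such a transcript and 1.99 TPM in the 12 without, but Atp6v1c2 averaged 2.07 TPM in the 7 and 42.9 TPM in the 12. The part of transcripts from other cells in these values was not tested. With the cells holding such a transcript left out of the other types, all 5 kidney-restricted genes still had their highest mean in an intercalated type. The intercalated types were kept whole and were already highest, so this could hardly come out otherwise and adds no support.

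The genes whose pattern over all single cells was most like that of a kidney-restricted member were mostly other members. Among 7279 genes with a mean of 10 TPM or more, the likest to Atp6v1g3 by Pearson's r of log2(TPM + 1) were Atp6v0d2 (r = 0.84), Atp6v1c2 (r = 0.83) and Pam (r = 0.81). Atp6v1c2 and Atp6v0d2 had each other and Atp6v1g3 at the head of their lists, followed by Aldh1l1 (r = 0.77) and Pam (r = 0.76). Atp6v0a4 came nearest to Atp6v0d2 (r = 0.68), and Atp6v1b1 nearest to Tmem213 (r = 0.51), Atp6v1c2 (r = 0.48) and Pgrmc1 (r = 0.47). These values describe cells that differ in type and that may also share batches. Within the 87 type A cells the 10 correlations among the 5 kidney-restricted genes ran from 0.27 to 0.66 with a median of 0.49, and those among the widely expressed genes had a median of 0.12. For the kidney-restricted genes the median was 0.10 in the 23 type B cells (-0.11 to 0.26), beside 0.08 for the widely expressed genes, and 0.27 in the 74 principal cells (0.02 to 0.71).

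The GFP-positive and GFP-negative fractions ask which paralogs go with expression of the Atp6v1b1 GFP strain's reporter. The sorted gene checks the labels, since Atp6v1b1 had 398 and 455 CPM (counts scaled to library size) in the GFP-positive and 15.7 and 10.2 CPM in the GFP-negative samples. Its rise was fixed by the sort and is not counted. The other 4 kidney-restricted genes rose in the GFP-positive fraction, against 15.2% of the 15671 genes tested that rose (edgeR quasi-likelihood test, adjusted p under 0.05), by 1.88 to 6.38 on the log2 scale, against a median of 0.02 over all genes. Of the widely expressed genes 2 of 5 fell, against 17.3% of all genes, and none rose. A higher level in a fraction can come from more cells of a type or from more RNA per cell, which cannot be told apart in bulk samples.

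Atp6v0d2 had 929 and 1046 CPM in the GFP-positive and 16.7 and 6.20 CPM in the GFP-negative samples. The log2 difference was 6.38 ± 0.42 (SE; edgeR adjusted p 4.68e-05). Atp6v1g3 had 567 and 946 CPM against 13.6 and 5.62 CPM, a difference of 6.25 ± 0.44 (edgeR adjusted p 4.78e-05). These groups were far apart although the GFP-positive samples differed from each other in Atp6v1g3. Atp6v1c2 had 271 and 274 CPM against 4.14 and 2.18 CPM, a difference of 6.36 ± 0.28 (edgeR adjusted p 2.41e-05). Atp6v0a4 rose less, from 321 and 274 CPM to 1097 and 1231 CPM, by 1.88 ± 0.19 (edgeR adjusted p 1.62e-04). Its groups were also far apart, but the GFP-negative level was not low.

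Among the paralogs, Atp6v1b2 fell from 388 and 321 CPM to 169 and 172 CPM, a log2 difference of -1.14 ± 0.17 (edgeR adjusted p 0.0011). Atp6v1c1 fell from 130.3 and 103 CPM to 81.2 and 86.3 CPM (-0.56 ± 0.16, edgeR adjusted p 0.0315). That call was lost when any 1 of the 4 samples was left out, with edgeR adjusted p from 0.0548 to 0.165. Atp6v0d1 and Atp6v0a1 did not pass the test, at -0.14 ± 0.19 and 0.23 ± 0.17. Atp6v1g1 is uncertain: its counts gave -0.52 ± 0.20 (edgeR adjusted p 0.0796), while the authors' RPKM values (reads scaled to gene length and depth) were higher in the GFP-positive samples, at 55.5 and 60.6 against 44.7 and 31.7. On RPKM, limma again called the 4 kidney-restricted genes and none of the widely expressed genes, with 12.2% of 13474 genes called. Other cell types moved with this sort: the summed proximal tubule list was at 11399 and 13218 CPM in the GFP-negative and 1498 and 2529 CPM in the GFP-positive samples, and the list for distal convoluted and connecting tubule at 110.9 and 159 CPM and at 1160 and 1841 CPM. All 5 principal markers were called higher in the GFP-positive samples and all 4 immune markers lower. The thick ascending limb list summed to 7757 and 8712 CPM in the GFP-negative and to 10036 and 15499 CPM in the GFP-positive samples. Of its 5 markers 2 were called, Cldn16 higher and Cldn10 lower in the GFP-positive samples. The part of all these cell types in the differences was not tested.

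The c-Kit and DBA fractions compare cells enriched on c-Kit, a receptor of type A cells, with cells enriched on DBA, a lectin that binds collecting duct cells. All 5 kidney-restricted genes rose in the c-Kit samples, against 16.1% of 14341 genes (limma, adjusted p under 0.05), with a median log2 difference of 4.38 against -0.11 over all genes. Of the widely expressed genes 2 fell, against 28.1% of all genes, and the other 3 were not called. Atp6v1g3 had 1705 and 1948 TPM in the c-Kit and 57.4 and 72.8 TPM in the DBA samples, a log2(TPM + 1) difference of 4.80 ± 0.12 (limma adjusted p 2.43e-06). Atp6v0d2 had 1076 and 1161 TPM against 44.5 and 48.4 TPM (4.56 ± 0.07, limma adjusted p 5.78e-07). No DBA sample came near a c-Kit sample in either gene.

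Atp6v1c2 had 664 and 733 TPM in the c-Kit and 32.3 and 32.9 TPM in the DBA samples (4.38 ± 0.07, limma adjusted p 5.78e-07). Atp6v1b1 and Atp6v0a4 differed by less, with 508 and 766 TPM against 144.63 and 139.8 TPM for Atp6v1b1 (2.13 ± 0.17, limma adjusted p 1.66e-04), the c-Kit samples being the more spread. Atp6v0a4 had 167 and 150.4 TPM against 32.7 and 36.1 TPM (2.17 ± 0.09, limma adjusted p 9.96e-06). Atp6v0d1 went the other way, with 88.2 and 85.1 TPM in the c-Kit and 236 and 231 TPM in the DBA samples (-1.42 ± 0.06, limma adjusted p 1.25e-05), which is the order of type A and principal cells among the single cells. Atp6v0a1 fell from 35.6 and 34.2 TPM to 26.4 and 23.9 TPM (-0.46 ± 0.09, limma adjusted p 0.00758), and this call was lost without either DBA sample (limma adjusted p 0.0842 and 0.0684). Atp6v1b2, Atp6v1g1 and Atp6v1c1 differed by 0.17 ± 0.07, 0.09 ± 0.06 and 0.07 ± 0.06 and were not called. The DBA samples were not free of intercalated cells' transcripts: the type A list summed to 61.1 and 73.1 TPM there against 3059 and 3097 TPM in the c-Kit samples. Nor were the c-Kit samples type A cells alone: the type B list, whose cells had the highest single-cell means of Atp6v1g3, Atp6v1c2 and Atp6v0d2, summed to 1616 and 1633 TPM there and to 159 and 178 TPM in the DBA samples. All 5 principal, 4 proximal tubule and 4 immune markers were called lower in the c-Kit samples. Their summed levels ran from 2395 to 3238, 1135 to 1259 and 3634 to 3881 TPM in c-Kit, and from 21662 to 24135, 2391 to 2484 and 11602 to 12036 TPM in DBA samples. The part of these cell types in the members' differences was not tested.

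**Figure D3:**
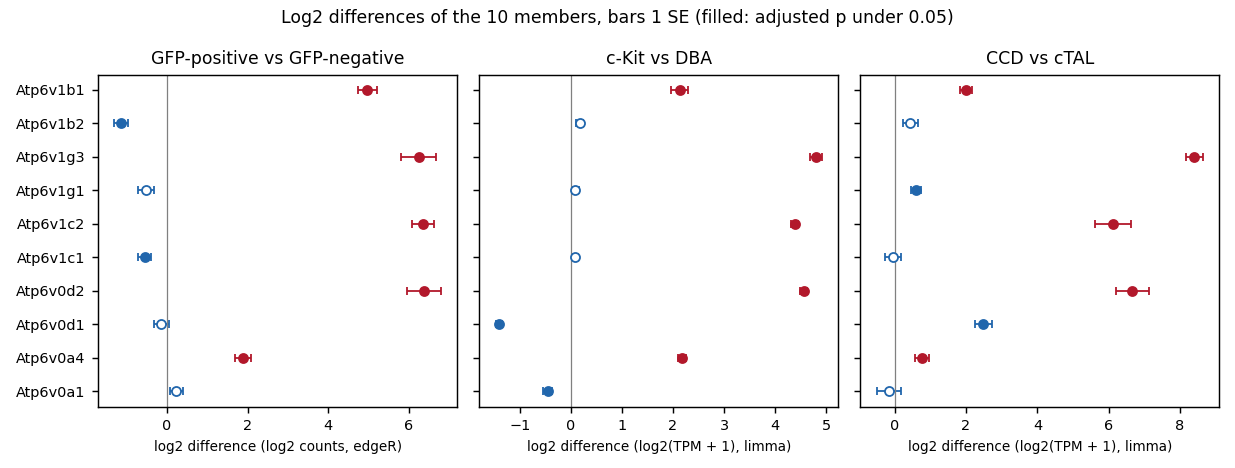
Log2 differences of the 10 members with bars of 1 SE, from edgeR on counts (GFP-positive minus GFP-negative, left) and from limma on log2(TPM + 1) (c-Kit minus DBA, middle; CCD minus cTAL, right); kidney-restricted genes are red, widely expressed genes blue, and filled points have an adjusted p under 0.05. All 5 red points lie above 0 in each panel, and Atp6v0d1 lies at -1.42 in the middle panel and at 2.49 in the right one.

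Cortical collecting ducts contain intercalated and principal cells, and the cortical thick ascending limb is a salt-reabsorbing segment upstream of them, so these tubules compare the paralogs between 2 segments of known position. Over 13520 genes tested, all 5 kidney-restricted genes rose in CCD, against 13.2% of all genes, and 2 of 5 widely expressed genes did (limma, adjusted p under 0.05). None of the 10 fell, against 5.5% of all genes. The median log2 difference of the kidney-restricted genes was 6.12, against 0.31 over all genes, a shift that quantile normalization moved to -0.03. Values of the CCD and cTAL groups did not overlap for 5 of the 10 members, against 5.51% of all genes. The set divided within cTAL: Atp6v1b1 and Atp6v0a4 stayed at 44.0 TPM or more in every tubule, Atp6v1c2 and Atp6v0d2 at 27.8 and 15.9 TPM or less, and Atp6v1g3 at 3.35 TPM or less.

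Atp6v1g3 ran from 444 to 959 TPM in the 11 CCDs, with a median of 891 TPM, and from 0.54 to 3.35 TPM in the 8 cTALs, with a median of 0.96 TPM. The log2(TPM + 1) difference was 8.40 ± 0.25 (SE; limma adjusted p 1.47e-17). Atp6v0d2 ran from 159 to 700.3 TPM with a median of 505 TPM in CCD, and from 0.11 to 15.9 TPM with a median of 4.00 TPM in cTAL (6.66 ± 0.46, limma adjusted p 9.44e-11). For both genes the lowest CCD was m2_CCD2, and the next lowest had 761 and 325 TPM.

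Atp6v1c2 ran from 135 to 802 TPM with a median of 691 TPM in CCD, and from 0.47 to 27.8 TPM with a median of 12.3 TPM in cTAL (6.12 ± 0.52, limma adjusted p 3.28e-09). Its cTAL values fell into 3 tubules at 0.47, 1.18 and 1.91 TPM and 5 tubules at 10.8 to 27.8 TPM. In the first 3 Atp6v0d2 was at 0.59, 2.81 and 0.84 TPM, and in the 5 it was at 11.3, 0.11, 15.9, 5.18 and 10.7 TPM, so 4 of the 5 cTALs with more Atp6v1c2 also held more Atp6v0d2 than the other 3. In cTAL the summed type A list reached at most 1.11 TPM and the type B list at most 4.99 TPM. The principal list summed to 43.1 to 212 TPM there. The list shared by both intercalated types summed to 437 to 769 TPM. Its members Car2, Tfcp2l1, Rhcg and Foxi1 averaged 468, 59.0, 2.16 and 0.435 TPM in cTAL. The part of collecting duct cells in these cTAL values was not tested.

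Atp6v1b1 ran from 480.1 to 893 TPM with a median of 608 TPM in CCD and from 102 to 268 TPM with a median of 172 TPM in cTAL. The difference was 2.00 ± 0.18 (limma adjusted p 7.77e-09), and no cTAL reached the lowest CCD. Atp6v0a4 ran from 92.9 to 162 TPM with a median of 127 TPM in CCD and from 44.0 to 125 TPM with a median of 72.3 TPM in cTAL (0.77 ± 0.20, limma adjusted p 0.00687). These groups overlapped, since 2 cTALs, at 125 and 101 TPM, exceeded the lowest CCD. The Atp6v0a4 call was lost when tubules that share the leading code of their column name, which the labels do not explain, were averaged first (0.74, limma adjusted p 0.0556).

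Atp6v0d1 was the widely expressed gene that differed most between tubules. It ran from 209.99 to 456 TPM with a median of 291 TPM in CCD and from 19.7 to 89.7 TPM with a median of 53.0 TPM in cTAL (2.49 ± 0.24, limma adjusted p 2.87e-08). Every CCD lay above every cTAL. Atp6v1g1 rose from a median of 136 TPM (92.5 to 168) in cTAL to 209 TPM (132 to 247) in CCD, by 0.59 ± 0.14 (limma adjusted p 0.00472). The groups overlapped, and after quantile normalization the difference was 0.40 (limma adjusted p 0.0819). Atp6v1b2, Atp6v1c1 and Atp6v0a1 differed by 0.44 ± 0.22, -0.05 ± 0.22 and -0.16 ± 0.35 and were not called. Their medians were 150.1, 96.9 and 26.7 TPM in CCD and 103, 97.1 and 26.6 TPM in cTAL.

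**Figure D4:**
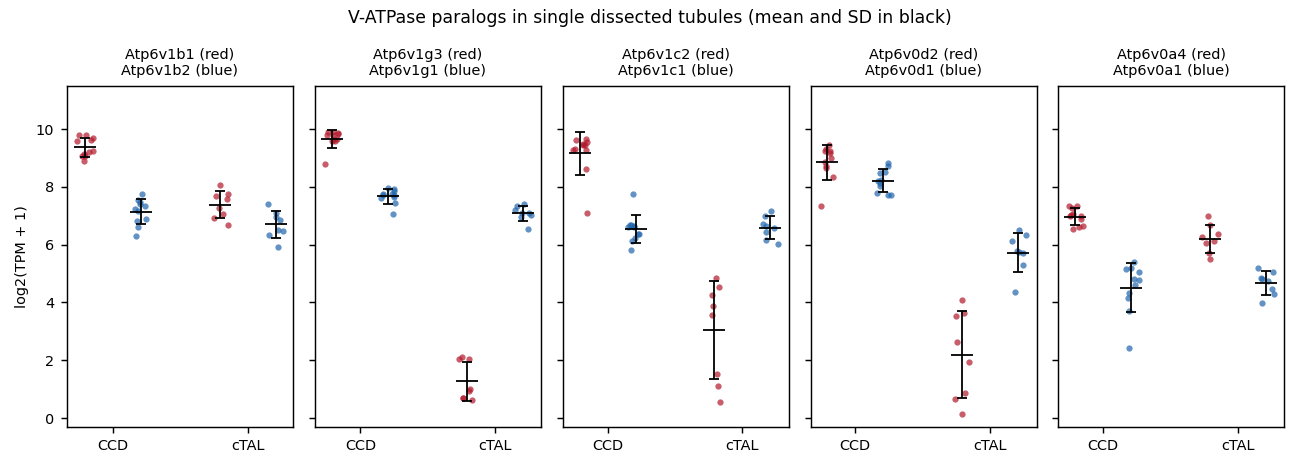
TPM of each paralog pair in 11 CCDs and 8 cTALs on a log2(TPM + 1) axis, 1 point per tubule, with the kidney-restricted gene in red, its paralog in blue and the mean and SD in black. In cTAL the red points of Atp6v1b1 and Atp6v0a4 lie at 102 to 268 and 44.0 to 125 TPM, and those of the other 3 pairs at most at 27.8 TPM.

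The balance within a pair was compared inside each tubule, where both genes share 1 library. The log2 ratio of kidney-restricted to widely expressed TPM, each plus 1, was higher in CCD than in cTAL by 7.81 in the G pair, 6.17 in the C pair and 4.17 in the d pair (exact permutation test, two-sided, p = 1.32e-05 for each, the smallest that 75582 arrangements can give, and 2.21e-05 adjusted over the 5 pairs). The B pair differed by 1.55 (exact permutation p = 1.59e-04, adjusted 1.99e-04) and the a pair by 0.93 (exact permutation p = 0.0124, adjusted 0.0124). With the ratios averaged per column code and paired over 6 codes, the a pair differed by 0.84 and was not called (exact sign-flip permutation p = 0.0938). That test cannot go below 0.0313, which the other 4 pairs reached.

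In CCD each kidney-restricted gene exceeded its paralog on average (exact sign-flip permutation test, adjusted over 10 tests, p = 0.00868 for the d pair and 0.00244 for the others). It did so in 11 of 11 CCDs for 4 pairs, and in 9 of 11 for Atp6v0d2 over Atp6v0d1, where the mean log2 ratio was 0.63 ± 0.56 (SD, n = 11). In cTAL Atp6v0a4 exceeded Atp6v0a1 in 8 of 8 tubules (1.53 ± 0.43, SD; exact permutation adjusted p 0.00868). Atp6v1b1 exceeded Atp6v1b2 in 7 of 8 (0.68 ± 0.75, SD; exact permutation adjusted p 0.0469), the exception being m7_cTAL1 with 121 and 170 TPM. Atp6v1g3, Atp6v1c2 and Atp6v0d2 were below their paralogs in all 8 cTALs, with mean log2 ratios of -5.81, -3.55 and -3.54 (exact permutation adjusted p 0.00868 for each).

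As shares of a pair's TPM, Atp6v1g3 made up a median of 80.7% in CCD and 0.69% in cTAL, and Atp6v0a4 82.6% and 75.4%. The c-Kit samples had Atp6v1g3 at 87.9% and 89.2%, Atp6v0d2 at 92.4% and 93.2%, and Atp6v1b1 at 67.8% and 75.8% of the pair. In the DBA samples these shares were 20.0% and 25.4%, 15.9% and 17.3%, and 38.9% and 40.5%, and Atp6v0a4 and Atp6v0a1 were almost even, at 47.8% and 51.3%. In the GFP fractions, in RPKM, Atp6v1b1, the sorted gene, was at 73.5% and 77.1% in GFP-positive and 3.55% and 5.51% in GFP-negative samples. Atp6v0d2 made up 86.5% and 88.4% of the d pair in GFP-positive and 3.10% and 3.25% in GFP-negative samples. Atp6v0a4 made up most of the a pair in both fractions, at 93.8% and 94.2% in GFP-positive and 82.0% and 83.2% in GFP-negative samples. These shares leave out Atp6v0a2 and Tcirg1, further genes for subunit a. In the DBA samples Atp6v0a2, Tcirg1 and Atp6v0a4 had means of 59.2, 46.6 and 34.4 TPM, and in the c-Kit samples 52.9, 25.5 and 159 TPM. Groups of 2 against 2 allow no exact permutation p below 0.333, so these shares are given without a test.

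**Figure D5:**
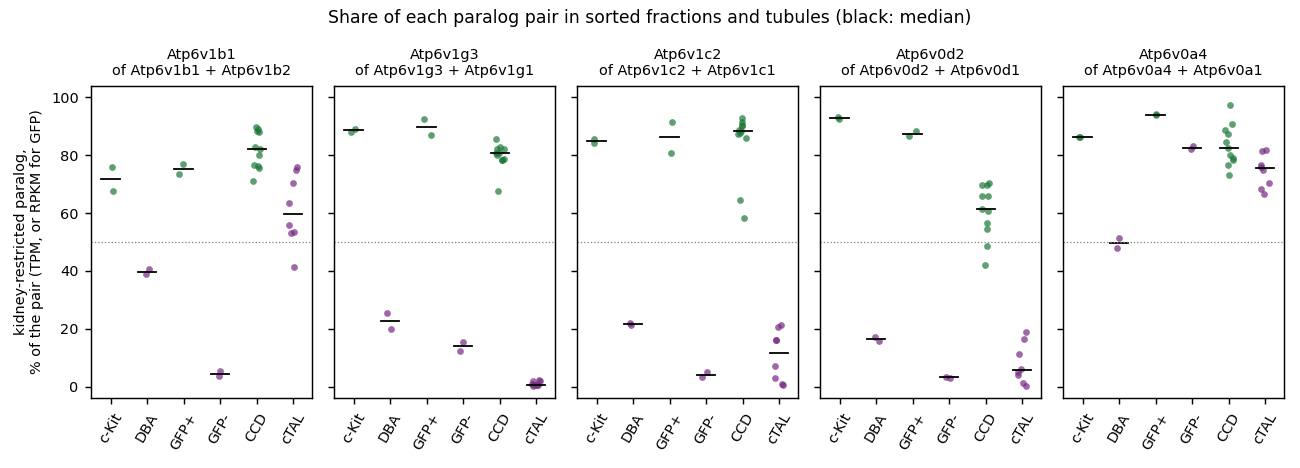
Share (%) of each pair's summed TPM, or RPKM for the GFP samples, that came from the kidney-restricted gene, 1 point per sample, with medians as black bars and a dotted line at 50%. In the a pair every CCD, cTAL, GFP-positive, GFP-negative and c-Kit sample lies above the line, whereas in the G, C and d pairs all cTAL, DBA and GFP-negative samples lie below it.

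The rest of the pump was read from a list of 28 genes, of which 26 were tested in each comparison. In CCD against cTAL, where 13.2% of all genes rose and 5.5% fell, 15 rose and none fell, with a median log2 difference of 1.05. They included all 6 V1 subunits tested, among them the catalytic subunit gene Atp6v1a, at 552 ± 91.7 TPM in CCD (SD, n = 11) and 267 ± 37.4 TPM in cTAL (SD, n = 8). They also included the proteolipid genes Atp6v0b and Atp6v0c and both accessory genes, Atp6ap1 and Atp6ap2. In c-Kit against DBA, 16 rose and 7 fell, against 44.3% of all genes called, with a median of 0.74. Those that fell included Rogdi, an assembly factor, from a mean of 498 to 223 TPM, and Tcirg1, which encodes the subunit a of osteoclasts, from 46.6 to 25.5 TPM. In the GFP fractions 12 rose and 2 fell, against 32.6% of all genes called, with a median of 0.68. On the RPKM values limma called 6 of the 26 higher and none lower, against 12.2% of all genes called. Of the 14 called on counts, Atp6v1h rose by 1.56 and Atp6v1a by 1.35, while Tcirg1 and Atp6v0e2 fell by 0.94 and 1.46 on the log2 scale.

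Tldc2, which encodes a TLDc-domain protein of a family that binds the pump, was the list's gene with the highest log2 difference between tubules. It ran from 111.59 to 640 TPM in CCD, with a median of 510.1 TPM, and from 0 to 4.69 TPM in cTAL, with a median of 0.53 TPM (7.97 ± 0.35, limma adjusted p 2.63e-14). It rose by 6.18 ± 0.38 in the GFP-positive samples (edgeR adjusted p 4.31e-05) and by 2.43 ± 0.12 in the c-Kit samples (limma adjusted p 2.15e-05). In single cells 9 of 23 type B cells held it (39.1%, with bounds of 19.7% and 61.5%), as did 2 of 87 type A cells (2.30%, 0.280% to 8.06%), with means of 327 and 7.32 TPM. No principal, proximal tubule or non-epithelial cell had 1 TPM, which allows shares of up to 4.86%, 17.6% and 10.9% by the exact interval.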

How the data were processed

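RNA of single cells, 4 bulk sorted samples, 4 GFP fractions and 19 tubules was analysed from deposited tables; no reads were processed here. The TPM tables were made by the authors, whose processing notes name STAR 2.5.1b, RSEM 1.2.31, Seurat and GRCm38.p5 without assigning them to tables. Per the file headers, the deposited raw counts came from HTSeq-count and the deposited RPKM values from the same RefSeq annotation. Reads in no gene, 66.7% to 72.8% of each GFP sample, stayed out of library sizes. Strand use in counting: not given in the sources used here. Column names of the RPKM table (first and second experiment) are not tied to replicate numbers.

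Counts were tested with edgeR 4.0.16 (TMM, filterByExpr, quasi-likelihood) in R 4.3.3. TPM values were tested with limma 3.58.1 on log2(TPM + 1), with a variance trend, among genes with a mean of 1 TPM or more. A fold on this scale is understated for low genes. P-values were Benjamini-Hochberg adjusted over all genes tested and calls made under 0.05. Pair ratios were tested by exact permutation over tubules in Python 3.11.15. Both scripts were tested on simulated data. Coding sequences (GENCODE M21) were aligned with Biopython 1.88, taking the longest complete coding sequence of each gene. TPM keeps no depth, so no read-based interval can be given, and intervals on shares of cells do not cover RNA loss.

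The members and lists were chosen with earlier results of these data known. Named genes are the 10 members, the 28 other V-ATPase genes and, for likeness, the 3 genes with the highest Pearson r to each kidney-restricted member. Single cells were described only, and all cells were kept with the authors' types. Alternatives were DESeq2 1.42.0, other size factors, filters, pseudocounts of 0.1 and 5, RPKM, quantile normalization, no trend, sample weights, a replicate block and leaving out each sample. Those that use column codes, experiments, library totals, m2_CCD2 or intercalated transcripts were chosen after seeing the data. The number of unused per-sample columns was 0.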

Additional observations from a re-analysis of the deposited data

How the results depend on the processing

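All 5 kidney-restricted genes kept their direction and their call in the GFP, c-Kit and tubule comparisons under every alternative run, except Atp6v0a4 between tubules after averaging per column code. For Atp6v1b1 between the GFP fractions this was fixed by the sort. Alternatives moved the number of genes called more than the number of members called. In the GFP comparison 5101 genes were called, 1639 by limma on RPKM, 2157 with the experiment of the RPKM header as a block, and 3616 to 4211 with 1 sample left out, where the members called fell from 7 to 6. In the c-Kit comparison 6348 were called and 3458 to 5701 with 1 sample left out (6 to 7 members), the fewest without DBA replicate 2 and 3600 without DBA replicate 1. A group left with 1 sample is assumed to vary like the other. Between tubules 2526 were called, 4401 with sample weights, 2239 to 3078 with 1 tubule left out (7 members throughout) and 3078 without m2_CCD2. The a pair's ratio, averaged per column code, differed by 0.84 and lost its call. With the replicate number as a block, 5897 genes were called between the GFP fractions and 6271 between c-Kit and DBA, and no member's call changed. Same-numbered samples deviated together with correlations of 0.139 and 0.026, so the block is a number shared by the labels and no pairing is shown. Among tubules of the same type the median correlation was 0.079 with a shared column code and -0.129 with different codes. Tubules that share a code may therefore not be independent, and the main tests over tubules count each as separate. All 5 kidney-restricted genes also had their highest median and highest mean log2 value in an intercalated type. By mean log2 value Atp6v1b2, Atp6v1g1, Atp6v1c1 and Atp6v0a1 did too, so on that scale the highest type set only Atp6v0d1 apart. Detection shares moved beyond their interval in 52 of 100 cases when the threshold was 0 or 10 TPM. No member or pair ratio stood apart in a single cTAL by the gap criterion of 0.526, of 15 checked.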
